A study of Mus musculus with 12 samples.

Results

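A set of 45 DNA replication machinery genes was described across 12 mouse germ cell libraries, 2 in each of 6 groups. They were chosen by name from the 26218 gene rows of the deposited table, and all 45 had a row and passed the filter for testing. They fall into 9 roles: 6 helicase core genes, 6 origin recognition genes, 3 licensing genes, 6 helicase activation genes, 9 polymerase genes, 5 clamp loader genes, 6 genes of the clamp, single-strand binding and Okazaki fragment joining, 2 nucleotide supply genes and 2 fork protection genes.

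The study compared cultured primordial germ cell-like cells (PGCLCs) with germ cells of the mouse embryo. PGCLCs were made from C57BL/6 embryonic stem cells that carry a Blimp1-mVenus and a Stella-ECFP reporter, by way of epiblast-like cells. They were sorted for Blimp1-mVenus at day 4 of induction, expanded on m220 feeder cells, and sorted again after 3, 5 or 7 days of culture. These groups are named d4c3, d4c5 and d4c7, and 10 ng of RNA went into each of their libraries. The embryonic groups were primordial germ cells (PGCs) of embryonic day (E) 9.5, which were not divided by sex, and E12.5 germ cells of either sex. They carried a Stella-EGFP reporter by which they were sorted, their strain is given as ICR:C57BL/6=1:1, and 1 ng of RNA went into each library. Culture and embryo therefore differ in strain, reporter, sort and RNA input as well, and these cannot be told apart from the effect of culture. Nothing in the labels tells whether the 2 replicates of a group were separate cultures or animals. P-values therefore cover the spread between libraries alone, and that spread may be technical.

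Replication starts where the origin recognition complex sits on DNA and, with Cdc6 and Cdt1, loads the ring of Mcm2 to Mcm7, the core of the replicative helicase. Cdc45 and the GINS complex turn the loaded ring into an active helicase, DNA polymerase alpha with primase starts each strand, and polymerases epsilon and delta extend the leading and lagging strands. Many of these genes are transcribed together as cells enter S phase, under control of E2F transcription factors. PGCs divide while they migrate and after they reach the gonad. Later, female germ cells enter meiosis and male germ cells stop dividing.

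Because the genes are known as a group for E2F control, their promoters were searched for the E2F core GCGGGAA and its reverse complement TTCCCGC in the 250 bases before the transcript start that the promoter table uses. RefSeq promoters of GRCm38.p6 were at hand for 36 of the 45 genes, and the first listed promoter of each gene was used. Mcm7, Orc2, Orc4, Pold2, Lig1 and Fen1 had more than 1 listed, and their other promoters were not searched. In 29 of the 36, bases shortly after the start used lay in an annotated transcript of the gene. The core was present in 8 of the 36 (22.2%), in 3.84% of 27025 promoters of all genes and in 7.61% of the 8449 promoters of genes tested here. The 9 matches in those 8 promoters are shown with 8 bases on either side, 5′ to 3′ along the gene's strand and with the core in capitals, so that their flanks can be compared. A match describes the letters and is not a measured binding site. Only this core was searched for E2F, so a promoter without it is not shown to lack an E2F site.
Mcm7, chr5:138172034-138172056, minus strand: ttcgaaccGCGGGAAacagggtg
Orc3, chr4:34614968-34614990, minus strand: gcctccctTTCCCGCacgccccg
Cdc6, chr11:98908005-98908027, plus strand: ggtggagaGCGGGAAatcgcctg
Gins3, chr8:95633510-95633532, plus strand: agtgcggcGCGGGAAagcgagtt
Pola1, chrX:93632310-93632332, minus strand: cgccgaggTTCCCGCttttcgct
Pola1, chrX:93632262-93632284, minus strand: gcactcccGCGGGAAggccgggg
Prim1, chr10:128015192-128015214, plus strand: ctgtcttgTTCCCGCcaattctc
Rpa2, chr4:132768315-132768337, plus strand: gtcccttcGCGGGAAggagtttg
Rrm1, chr7:102441620-102441642, plus strand: agaactcgTTCCCGCcaggtccg

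The core ended 9 bases before the start in Prim1 and began 169 bases before it in the farther of the pair in Pola1. The start used is that of 1 transcript and need not be the outermost end of the gene: the windows of Mcm7 and Cdc6 and both windows of Pola1, 4 in all, lie inside the span RefSeq lists for the gene. The window of Mcm7 overlaps exons of Ap4m1 and Mcm7, that of Orc3 an exon of Rars2, and those of Gins3, Prim1 and Rpa2 exons of other transcripts of the same genes in GENCODE M21. Further motifs were counted on both strands. The CCAAT box (CCAAT or ATTGG) was in 21 member promoters (58.3%), against 34.5% of all promoters and 38.1% of those of tested genes. The GC box (GGGCGG or CCGCCC), whose letters can overlap those of the E2F core, was in 24 (66.7%), against 32.9% and 62.1%. The cell cycle homology element (TTTGAA or TTCAAA) was in 4 (11.1%), against 16.3% and 10.3%.

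Levels are given in RPM, the reads of a gene scaled by the authors to the total of its library, as deposited. They are compared between libraries for a gene and not between genes. Depth was estimated with the most frequent value above 0 in a library taken as 1 read. It was 2219175 to 5817990 reads in genes per library, and 3 reads, the limit that a count of 0 allows, were worth 0.517 to 1.36 RPM. These limits cover counting error only, since amplified reads are not independent molecules. All 9 germ cell markers checked were detected in every group, with summed levels of 4350 to 7881 RPM over the libraries. Markers of blood and endothelium summed to 3862 and 4340 RPM at E9.5, with 1 of 9 (Cdh5) at 0, and to 48.7 to 167 RPM in the other libraries. Hindgut and endoderm markers, with 0 of 7 at 0 at E9.5, summed to 35.7 to 44.1 RPM there and to 3.14 to 10.4 RPM elsewhere. Fibroblast and stromal feeder markers summed to 666 to 696 RPM at E9.5, with 0 of 9 at 0, and to 203 to 503 RPM elsewhere, and both ends of that last range were d4c7 libraries. Gonadal somatic markers summed to 3.91 to 24.3 RPM in all libraries. Late germ cell markers summed to 46.9 to 48.3 RPM at E9.5, 94.2 to 104 RPM in d4c3, and at least 1749 RPM in every E12.5 library. In these bulk libraries, fewer cells of a type and less RNA per cell cannot be told apart.

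Replication genes were expressed in all groups within a narrow range. Summed over the 45 genes, the culture groups were at 7438 ± 12.9 (d4c3), 7534 ± 43.2 (d4c5) and 7302 ± 198 RPM (d4c7), with SD and n = 2. The embryonic groups were at 7324 ± 22.8 (E9.5), 8084 ± 193 (E12.5 males) and 8278 ± 73.5 RPM (E12.5 females), also with SD and n = 2. These genes made up 0.714% to 0.831% of the RPM of a library. Both E12.5 groups lay above every other library in this sum. From the highest to the lowest of its 6 group means, a replication gene spanned a median of 0.60 on the log2(RPM + 1) scale, and 38 of the 45 (84.4%) spanned less than 1. Over all 10856 genes tested the median span was 0.98 and 51.6% spanned less than 1. Among the 7379 tested genes whose mean level lay within that of the replication genes, the median was 0.83 and the share 63.5%. The 7 that spanned 1 or more were Cdc6, Gins3, Pold1, Pold2, Rpa1, Rpa2 and Lig1, with Rpa1 at 2.91. The smallest spans were those of Pold3 (0.16) and Mcm6 (0.22).

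**Figure D1:**
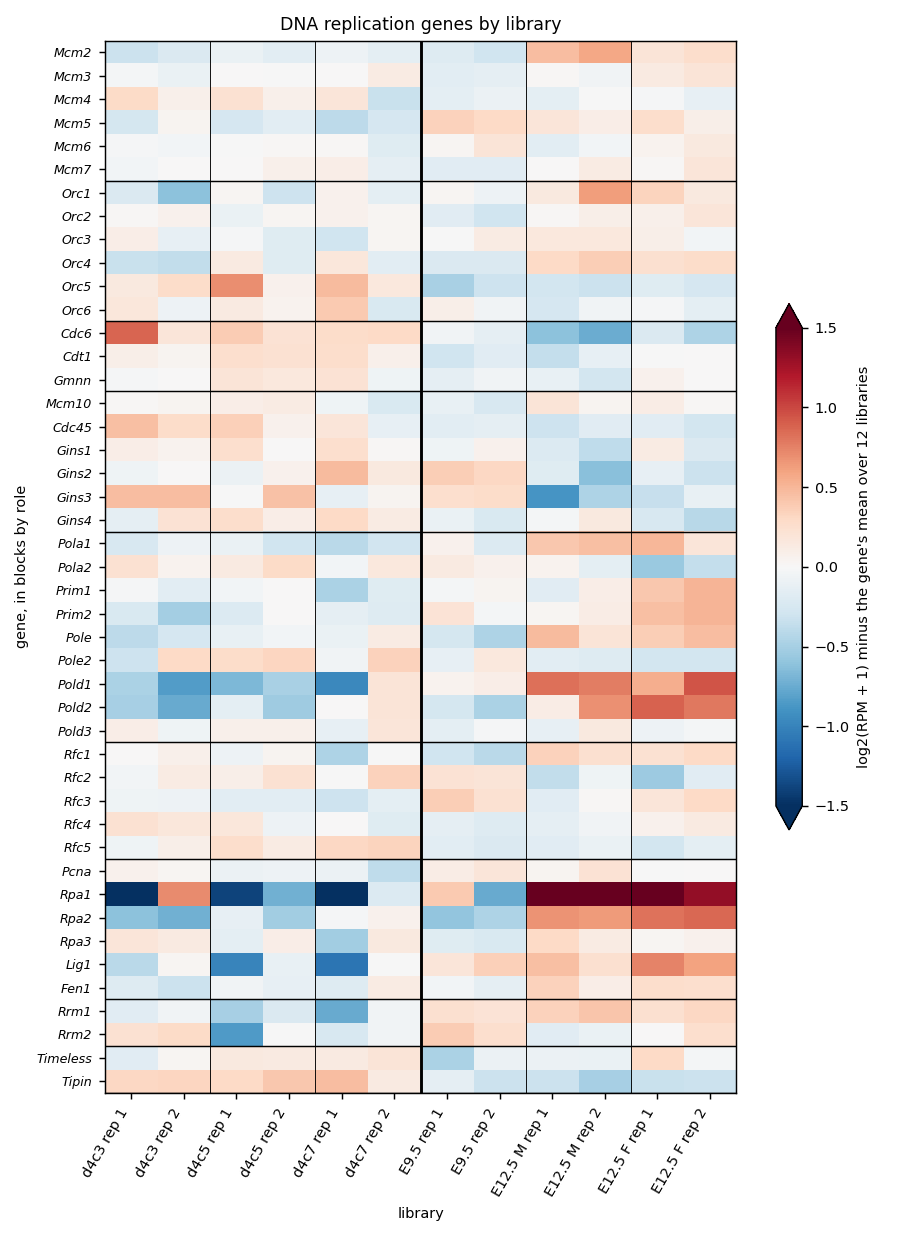
Each row is a replication gene, in blocks by role, and each column a library. Colour is log2(RPM + 1) minus the mean of that gene over the 12 libraries, from blue (lower) to red (higher), and values beyond the scale take the end colour. Most rows stay pale, and Rpa1, Rpa2, Pold1, Pold2, Lig1 and Cdc6 show the strongest contrast.

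Over expansion culture, levels of these genes stayed close together, and the single-strand binding gene Rpa2 was the 1 gene called. Here and below, a gene is called when its adjusted p (limma, Benjamini-Hochberg over all 10856 genes tested) is under 0.05, and its error is the standard error (SE) of the log2 change. Rpa2 rose from d4c3 to d4c7 by 0.68 ± 0.12 (adjusted p = 0.0103), and 2.75% of all genes tested were called. At an unadjusted p under 0.05 there were 8 replication genes: Orc4, Pole, Pold2, Rfc5 and Rpa2 had higher means at d4c7, and Cdc45, Rfc4 and Pcna lower means. Among these, Pold2 was at 19.9 and 16.4 RPM in d4c3 and 28.7 and 32.7 RPM in d4c7 (log2 difference 0.73 ± 0.23, adjusted p = 0.121). The median difference of the 45 genes was 0.01, beside 0.02 over all genes. With the median log ratio set to 0, 7 replication genes and 1788 of the 10856 genes tested had an unadjusted p under 0.05. For the first step, d4c3 to d4c5, limma called 0 replication genes (3 at an unadjusted p under 0.05, and 0.0829% of all genes called), and 1 without d4c5 replicate 2. For the second step, d4c5 to d4c7, limma also called 0 (3 at an unadjusted p under 0.05, and 0.0184% of all genes called). With the median log ratio set to 0, each step had 2 replication genes at an unadjusted p under 0.05. Over all 10856 genes tested there were 985 for the first step and 623 for the second. The count for d4c3 to d4c7 rested on single libraries. For the culture contrasts, the share of all genes called with a library left out is not given. The feeder markers differed between the 2 d4c7 libraries, as given above, and their part in this count was not tested. The count was 0 without either d4c3 replicate (5 and 6 at unadjusted p under 0.05), 4 without d4c7 replicate 1 and 5 without d4c7 replicate 2.

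Between E9.5 and E12.5 some replication genes rose and others fell. In males 11 of 45 were called, where 37.7% of all genes were, with 7 higher (20.0% of all genes) and 4 lower (17.6% of all genes). In females 13 of 45 were called, where 37.5% of all genes were, with 10 higher (20.4% of all genes) and 3 lower (17.1% of all genes). Rpa2, the helicase subunit gene Mcm2, the polymerase genes Pole and Pold2, the clamp loader gene Rfc1 and the origin gene Orc4 rose in both sexes, 6 genes where 13.4% of all genes rose in both. The GINS subunit gene Gins2 fell in both, 1 gene where 10.9% of all genes fell in both. Both contrasts use the same E9.5 libraries, so they are not independent of each other.

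The sexes also differed in which genes were called. In males the primase-associated polymerase gene Pola1 rose, and Cdc6, Gins3 and Rfc3 fell. In females Mcm3, Mcm7, Orc2 and the primase gene Prim1 rose, and Pola2 and Rfc2 fell. Whether a gene called in 1 sex differs between the sexes is a separate test, given below. The median change of the 45 genes was 0.08 in males and 0.18 in females, beside 0.05 and 0.04 over all genes. Counting libraries, 17 replication genes had all 4 E12.5 libraries above both E9.5 libraries (29.6% of all genes) and 9 had them below (24.7% of all genes). The E9.5 libraries also had the highest sums of blood and endothelium, hindgut and endoderm, and fibroblast markers given above, and the part of these transcripts in the differences was not tested.

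Counts of called replication genes depended on single libraries and on how the spread was estimated. The share of all genes called with a library left out is not given. Whether these moves are particular to replication genes therefore cannot be told. In males the count was 5 on leaving out either E9.5 library, 7 without male replicate 1 and 6 without male replicate 2. In females it was 5 and 7 without E9.5 replicate 1 and 2, and 7 and 8 without female replicate 1 and 2. Mcm2, Pole, Rfc1 and Rpa2 were called in both sexes with each library left out in turn, and so was Pold2 in females. With the replicate number as a block, 17 replication genes were called in males, and the share of all genes in that fit is not given.

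**Figure D2:**
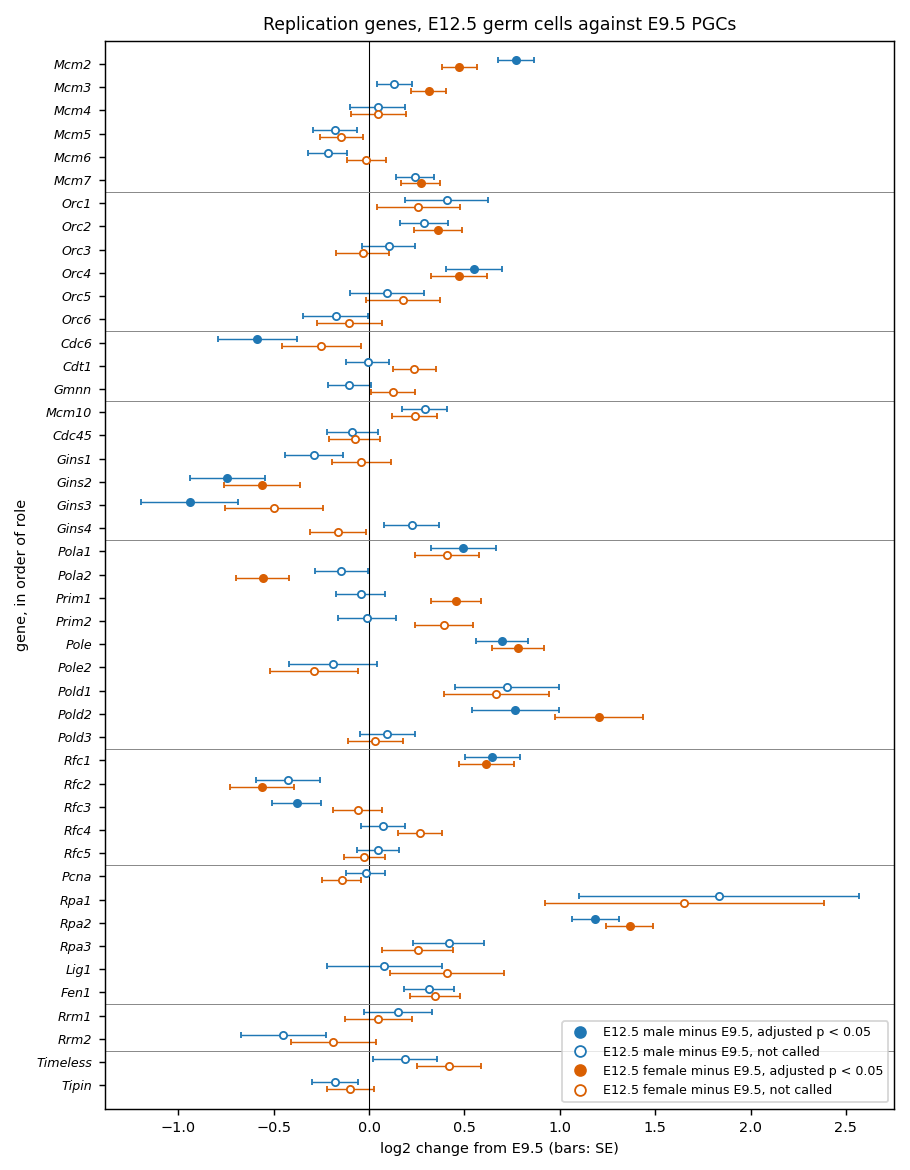
Points are log2 changes from E9.5 to E12.5 on the log2(RPM + 1) scale in males (blue) and females (orange), with bars for the SE, and filled points are called at an adjusted p under 0.05. Rpa2 rises in both sexes, while Gins2 and Gins3 lie to the left of 0 in both, with Gins3 called in males.

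Female and male E12.5 germ cells differed in 1 replication gene, Prim1, which encodes the catalytic subunit of primase. It was at 206 and 222 RPM in females and 138 and 166 RPM in males, so the groups did not overlap. Such separation was common: females lay above males in 16 replication genes and below in 9. Over the 10856 genes tested the numbers were 3218 and 3209. The log2 difference was 0.50 ± 0.13 (adjusted p = 0.023), where 11.9% of all genes were called. At an unadjusted p under 0.05 there were 7 replication genes. With the median log ratio set to 0 there were 6, where 2814 of the 10856 genes tested had such a p. Among the 7, Mcm2 had lower values in females, 533 and 559 RPM beside 643 and 698 RPM for males. It missed the threshold (log2 difference -0.30 ± 0.093, adjusted p = 0.0542). Prim2, the other primase subunit gene, was at 85.2 and 89.0 RPM in females and 63.8 and 67.4 RPM in males (adjusted p = 0.105). The call of Prim1 was lost without male replicate 1 or either female replicate, where limma called 0 genes (4, 5 and 4 at an unadjusted p under 0.05) and the adjusted p of Prim1 was 0.0794 to 0.210. With the replicate block 3 replication genes were called. The share of all genes is not given for that fit, nor for the fits that leave out a library.

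PGCLCs of d4c3 differed from E9.5 PGCs, the embryonic group with the lowest late germ cell markers, in 8 replication genes, where 23.7% of all genes were called. The E9.5 libraries also had the highest sums of blood and endothelium, hindgut and endoderm, and fibroblast markers. The part of these transcripts in the differences was not tested. Higher in d4c3 were 5 genes (13.4% of all genes): Orc5, Cdc6, Cdc45, Rfc4 and Tipin, by 0.37 to 0.62 on the log2 scale. The highest of these, Cdc6, was 0.27 without d4c3 replicate 1 (adjusted p = 0.433) and 0.97 without d4c3 replicate 2 (adjusted p = 0.00725). Lower were 3 genes (10.3% of all genes): Mcm5, Prim2 and Rfc3, with log2 differences of -0.37 to -0.46, and Mcm5 was at -0.28 without d4c3 replicate 1 (adjusted p = 0.15). None of the 8 calls held with each of the 4 libraries left out in turn. With the median log ratio of all genes set to 0, the count was 2 higher and 4 lower, where 1273 and 1274 of the 10856 genes tested were. With the replicate block 13 replication genes were called. The share of all genes is not given for that fit, nor for the fits that leave out a library. Leaving out d4c3 replicate 1 or 2 gave counts of 2 and 4, and leaving out E9.5 replicate 1 gave 1. On leaving out E9.5 replicate 2, limma called 0 (8 at an unadjusted p under 0.05).

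The largest number of calls came from the mean of the 3 PGCLC groups against the mean of the 3 embryonic groups, with 29 of 45 genes where 54.5% of all genes were called. Higher in PGCLCs were 12 (27.7% of all genes) and lower 17 (26.8% of all genes), and the median difference was -0.01, as over all genes. By role, all 3 licensing genes and 4 of 6 helicase activation genes were higher, and Gins2 and Mcm10 were not called. Of 9 polymerase genes 6 were lower and 1 higher, and of 6 genes of the clamp, single-strand binding and Okazaki fragment joining 5 were lower and Rpa3 was not called. Of 6 helicase core genes 2 were lower, of 6 origin recognition genes 1 was higher and 2 lower, and of 5 clamp loader genes 2 were higher and 1 lower. Rrm1 was lower and Tipin higher in the remaining roles. Roles were not tested against each other, and 8 of the 29 calls, Gmnn, Gins1 and Gins3 among them, were lost on leaving out at least 1 library. Of the genes with the E2F core that was searched, Cdc6 and Gins3 were among the higher and Pola1, Prim1, Rpa2 and Rrm1 among the lower. Mcm7 and Orc3 were not called.

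Which embryonic stage was used changed part of this picture. In a comparison added after these results were seen, PGCLCs were set against each stage alone. Against E9.5, 7 replication genes were higher (21.8% of all genes) and 6 lower (16.7% of all genes). Here too, the part of the blood, endoderm and fibroblast transcripts seen at E9.5 was not tested. Against the 2 E12.5 groups, 13 were higher (28.3% of all genes) and 17 lower (29.0% of all genes). The 6 genes higher against both stages (12.2% of all genes) were Orc5, Cdc6, Cdt1, Cdc45, Rfc5 and Tipin, and each had all 6 PGCLC libraries above all 6 embryonic libraries (6 genes, where 9.25% of all genes did). The 5 lower against both (8.77% of all genes) were Mcm5, Pold1, Rfc3, Lig1 and Rrm1, and in Mcm5, Lig1 and Rrm1 all PGCLC libraries lay below all embryonic libraries (6.24% of all genes). These 11 were picked by the 2 stage comparisons, which are among the alternatives run, so their calls in those were fixed. They were also called under the other alternatives run for this contrast. A fit to only the groups compared was not run for it. Against E9.5 alone, 12 of the 45 differences had the opposite sign, and none of the 12 was called against E9.5. The share of sign changes over all genes is not given. Of the 29 genes called against all embryonic groups, 7 were among the 12: Mcm2, Orc4, Pole, Pold2, Rpa2, Rfc2 and Gins3. The other 5, Mcm3, Mcm10, Gins2, Rfc1 and Rpa3, were not called against all embryonic groups.

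**Figure D3:**
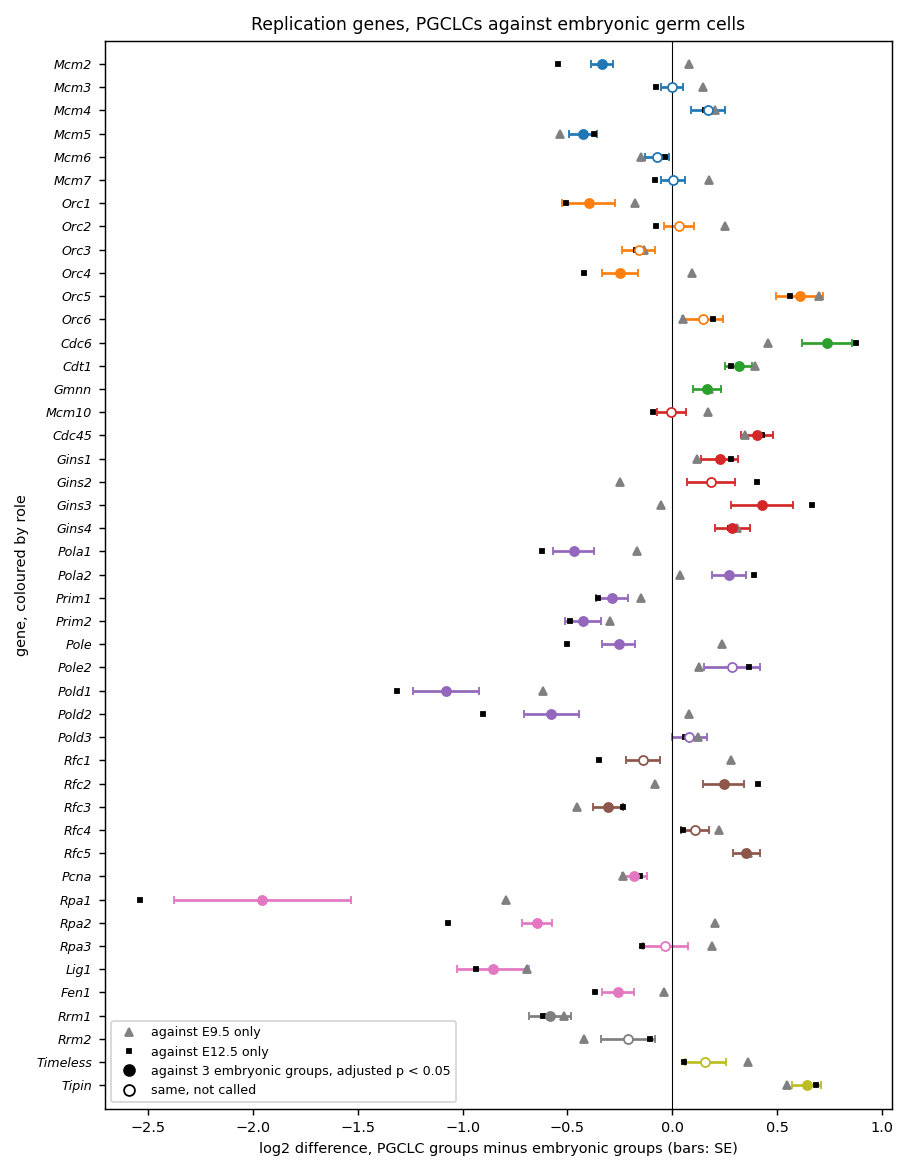
Circles are log2 differences of the PGCLC groups minus the 3 embryonic groups with bars for the SE, filled where called at an adjusted p under 0.05 and coloured by role. Triangles give the difference from E9.5 alone and squares that from E12.5 alone. Triangles and squares lie on the same side of 0 for Orc5, Cdc6, Cdt1, Cdc45, Rfc5 and Tipin (right) and for Mcm5, Pold1, Rfc3, Lig1 and Rrm1 (left).

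The helicase core genes Mcm2 to Mcm7 form the ring that unwinds DNA. Mcm2 (NCBI gene 17216, chromosome 6, 88883474 to 88898780, GRCm38.p6 here and below) was at 372 and 402 RPM in d4c3, 435 and 419 in d4c5, 443 and 422 in d4c7, 408 and 378 at E9.5, 643 and 698 in E12.5 males, and 533 and 559 in E12.5 females. It was highest in E12.5 males, next in females, and the other groups lay together below both. The log2 rise from E9.5 was 0.77 ± 0.093 in males (adjusted p = 3.16e-05) and 0.47 ± 0.093 in females (adjusted p = 0.00139), and PGCLCs differed from E12.5 by -0.54 ± 0.060 (adjusted p = 5.27e-06) and from E9.5 by 0.079 ± 0.076 (adjusted p = 0.444). Mcm5 was at 303 and 373 RPM in d4c3, 305 and 325 in d4c5, 277 and 305 in d4c7, 462 and 446 at E9.5, 412 and 390.5 in E12.5 males, and 435 and 387 in E12.5 females. All PGCLC libraries were below all embryonic ones, with a mean log2 difference of -0.43 ± 0.065 (adjusted p = 9.70e-05).

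Mcm6 varied least in this role, at 478 and 468 RPM in d4c3, 480.0 and 489 in d4c5, 488 and 424 in d4c7, 493 and 554 at E9.5, 431 and 468 in E12.5 males, and 501 and 534 in E12.5 females. Both E9.5 libraries lay above all PGCLC and male libraries, and the female libraries lay between them. Neither Mcm6 nor Mcm4 was called in any contrast. Mcm3 and Mcm7 were called in E12.5 females against E9.5 alone, with changes of 0.31 ± 0.092 and 0.27 ± 0.10 (adjusted p = 0.0164 and 0.0472). The call of Mcm3 was lost without either E9.5 library or female replicate 2 (adjusted p 0.0676 to 0.105), and that of Mcm7 was lost without either E9.5 library or either female library (adjusted p 0.0579 to 0.29). The 3′ end of Mcm7 overlaps the gene Cops6 on the opposite strand, and the sources used here do not say whether counting used strand, so its value may include reads of that gene.

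Origin recognition genes encode the complex that marks where replication can start. Orc5 (NCBI gene 26429, chromosome 5, 22486480 to 22550338), a subunit gene, was at 64.9 and 71.0 RPM in d4c3, 95.5 and 61.0 in d4c5, 81.7 and 65.5 in d4c7, 41.5 and 46.9 at E9.5, 48.1 and 46.4 in E12.5 males, and 51.5 and 48.8 in E12.5 females. Each PGCLC library was above each embryonic one, with a mean log2 difference of 0.61 ± 0.11 (adjusted p = 0.000405). Orc4 was at 65.7 and 63.9 RPM in d4c3, 91.2 and 72.7 in d4c5, 93.1 and 73.9 in d4c7, 71.3 and 71.0 at E9.5, 103 and 107 in E12.5 males, and 97.9 and 100.3 in E12.5 females. Its 4 E12.5 libraries were above all others, and it rose from E9.5 by 0.55 ± 0.15 in males (adjusted p = 0.00932) and 0.47 ± 0.15 in females (adjusted p = 0.0213). The male call was lost without either E9.5 library or male replicate 2 (adjusted p 0.0539 to 0.0628). The female call was lost without either E9.5 library or either female library (adjusted p 0.0757 to 0.0972), and the difference between PGCLCs and embryonic groups (-0.25 ± 0.085) was lost without d4c5 replicate 2, d4c7 replicate 2, E9.5 replicate 1, male replicate 2 or female replicate 2 (adjusted p 0.0511 to 0.0714). Its 3′ end overlaps Acvr2a, which averaged 5.03 RPM, on the opposite strand.

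Orc1, the gene of the largest subunit, was at 28.9 and 21.7 RPM in d4c3, 34.7 and 27.1 in d4c5, 35.3 and 30.5 in d4c7, 34.6 and 32.1 at E9.5, 37.5 and 52.7 in E12.5 males, and 42.7 and 37.5 in E12.5 females. It was lower in PGCLCs than in the embryonic groups with a log2 difference of -0.40 ± 0.13 (adjusted p = 0.0156), although libraries of the groups overlapped, and the call was lost without d4c3 replicate 2 or male replicate 2 (adjusted p 0.0507 to 0.0588). Its 3′ end is covered by the transcript Gm12743 on the opposite strand. Orc2, whose 3′ end overlaps Nif3l1, rose in females by 0.36 ± 0.13 (adjusted p = 0.0372), a call lost without either E9.5 library or either female library (adjusted p 0.0711 to 0.188). Orc3 and Orc6 were called in no contrast.

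Licensing genes load the helicase once per cycle, with geminin (Gmnn) as the inhibitor of Cdt1. Cdc6 (NCBI gene 23834, chromosome 11, 98907709 to 98923942) was at 80.6 and 49.2 RPM in d4c3, 56.9 and 50.6 in d4c5, 52.6 and 53.5 in d4c7, 41.9 and 39.6 at E9.5, 28.1 and 25.6 in E12.5 males, and 37.3 and 31.2 in E12.5 females. All PGCLC libraries lay above all embryonic ones, with a mean log2 difference of 0.74 ± 0.12 (adjusted p = 0.000155), and d4c3 replicate 1 stood above its replicate. The difference of d4c3 from E9.5 was 0.62 ± 0.21 (adjusted p = 0.0446), a call lost without d4c3 replicate 1 or either E9.5 library (adjusted p 0.147 to 0.433). Cdc6 also fell from E9.5 to E12.5 males with a log2 change of -0.59 ± 0.21 (adjusted p = 0.0385), a call lost without either E9.5 library or either male library (adjusted p 0.0872 to 0.169), while the female change of -0.25 ± 0.21 missed the threshold (adjusted p = 0.366). Female minus male was 0.33 ± 0.21 (adjusted p = 0.34).

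Cdt1, the second loading factor, was at 217 and 209.8 RPM in d4c3, 244 and 240.3 in d4c5, 246 and 216 in d4c7, 167 and 181 at E9.5, 159 and 187 in E12.5 males, and 204 and 206 in E12.5 females. The lowest PGCLC library was above the highest embryonic one by a small margin, and the difference of the means was 0.32 ± 0.065 (adjusted p = 0.000945). The gene Gm20388, on the same strand and with no row in the table, covers its 3′ end, so reads of the pair cannot be told apart. Gmnn was at 186 and 189 RPM in d4c3, 215 and 211 in d4c5, 218 and 180.5 in d4c7, 171 and 182 at E9.5, 174 and 155 in E12.5 males, and 197 and 188 in E12.5 females. Its libraries overlapped, and the difference of 0.17 ± 0.066 (adjusted p = 0.0456) was lost without either d4c3 library, either d4c5 library, d4c7 replicate 1, either E9.5 library, male replicate 2 or either female library (adjusted p 0.0627 to 0.128). Cdt1 and Gmnn were not called between E9.5 and E12.5.

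Helicase activation genes include Cdc45 and the 4 GINS subunits, which join the Mcm ring, and Mcm10, which acts in its activation. Cdc45 (NCBI gene 12544, chromosome 16, 18780447 to 18811972) was at 259.7 and 230.2 RPM in d4c3, 244 and 198 in d4c5, 215 and 174 in d4c7, 169 and 173 at E9.5, 153 and 169 in E12.5 males, and 169 and 156 in E12.5 females. The lowest PGCLC library, at 173.6 RPM in d4c7, was just above the highest embryonic library, at 173.1 RPM. PGCLCs were higher by 0.40 ± 0.077 (adjusted p = 0.000574), with a difference of 0.51 ± 0.13 between d4c3 and E9.5 (adjusted p = 0.0128) that was lost without d4c3 replicate 1 or either E9.5 library (adjusted p 0.0718 to 0.112).

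Gins2 was at 32.9 and 34.6 RPM in d4c3, 32.3 and 36.1 in d4c5, 48.3 and 38.3 in d4c7, 44.9 and 42.9 at E9.5, 30.3 and 22.0 in E12.5 males, and 31.5 and 27.4 in E12.5 females. It fell with a log2 difference of -0.74 ± 0.20 in males (adjusted p = 0.00959) and -0.56 ± 0.20 in females (adjusted p = 0.0385). The male call was lost without E9.5 replicate 1 or male replicate 2 (adjusted p 0.0665 to 0.112), and the female call was lost without either E9.5 library or either female library (adjusted p 0.0701 to 0.192). Its 3′ end overlaps Gse1, which averaged 35.9 RPM, and Gm20388, which had no row, both on the opposite strand. Gins3 was at 21.4 and 21.4 RPM in d4c3, 15.2 and 21.0 in d4c5, 13.9 and 15.8 in d4c7, 18.4 and 18.7 at E9.5, 7.76 and 10.8 in E12.5 males, and 11.8 and 14.0 in E12.5 females. Its E12.5 libraries lay below both E9.5 libraries, with a change of -0.94 ± 0.26 in males (adjusted p = 0.0105), a call lost without either E9.5 library or male replicate 1 (adjusted p 0.0577 to 0.0934). The change of -0.50 ± 0.26 in females missed the threshold (adjusted p = 0.143). Gins1 and Gins4 were higher in PGCLCs by 0.23 ± 0.088 and 0.29 ± 0.084 (adjusted p = 0.041 and 0.0102), and Gins3 by 0.43 ± 0.15 (adjusted p = 0.0249). The call of Gins1 was lost without either d4c3 library, d4c5 replicate 1, d4c7 replicate 1, either E9.5 library, male replicate 2 or female replicate 2 (adjusted p 0.0573 to 0.132). The call of Gins3 was lost without d4c5 replicate 2, either E9.5 library, male replicate 1 or female replicate 1 (adjusted p 0.0531 to 0.0766). Mcm10 was called in no contrast.

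Polymerase genes cover primase with polymerase alpha (Prim1, Prim2, Pola1, Pola2), polymerase epsilon (Pole, Pole2) and polymerase delta (Pold1, Pold2, Pold3). Pold1 (NCBI gene 18971, chromosome 7, 44532744 to 44548815), the catalytic subunit of polymerase delta, was at 47.7 and 36.8 RPM in d4c3, 41.3 and 47.4 in d4c5, 33.8 and 76.7 in d4c7, 69.1 and 71.7 at E9.5, 119 and 114 in E12.5 males, and 97.9 and 129 in E12.5 females. All PGCLC libraries but d4c7 replicate 2 were below both E9.5 libraries, and that library was above them. The difference was -1.08 ± 0.16 from all embryonic groups (adjusted p = 6.89e-05), -0.62 ± 0.22 from E9.5 (adjusted p = 0.0427) and -1.31 ± 0.18 from E12.5 (adjusted p = 3.06e-05). Pold2 (NCBI gene 18972, chromosome 11, 5872180 to 5878256), an accessory subunit of the same polymerase, was at 19.9 and 16.4 RPM in d4c3, 25.7 and 19.4 in d4c5, 28.7 and 32.7 in d4c7, 23.5 and 20.3 at E9.5, 30.9 and 46.4 in E12.5 males, and 53.4 and 50.0 in E12.5 females. It rose from E9.5 by 0.77 ± 0.23 in males (adjusted p = 0.0173) and 1.20 ± 0.23 in females (adjusted p = 0.00109). Male replicate 1 was below d4c7 replicate 2, and the male call was lost without either E9.5 library or male replicate 2 (adjusted p 0.052 to 0.196), with a change of 0.48 without male replicate 2.

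Pole, the leading-strand catalytic subunit gene, rose by 0.70 ± 0.14 in males (adjusted p = 0.00122) and 0.78 ± 0.14 in females (adjusted p = 0.000609), from 98.9 and 85.6 RPM at E9.5 to 166 and 135 RPM in males and 154 and 163 RPM in females. PGCLCs were lower than the embryonic groups with a log2 difference of -0.26 ± 0.079 (adjusted p = 0.0134), a call lost without E9.5 replicate 1 or male replicate 1 (adjusted p 0.0504 to 0.0523). Pola1, the catalytic subunit of polymerase alpha, was lower in PGCLCs than in the embryonic groups with a log2 difference of -0.47 ± 0.098 (adjusted p = 0.00106), and its rise in males of 0.49 ± 0.17 (adjusted p = 0.0334) was lost without E9.5 replicate 2 or either male library (adjusted p 0.095 to 0.231). Its partner Pola2 was at 115 and 102 RPM in d4c3, 108 and 120.3 in d4c5, 95.3 and 110.3 in d4c7, 108 and 103 at E9.5, 102 and 88.7 in E12.5 males, and 66.6 and 76.5 in E12.5 females. Both female libraries were below all others, and Pola2 fell from E9.5 to females with a log2 difference of -0.56 ± 0.14 (adjusted p = 0.00606), a call lost without E9.5 replicate 1 or female replicate 1 (adjusted p 0.0534 to 0.0646), while female minus male was -0.41 ± 0.14 (adjusted p = 0.068).

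Prim1 (NCBI gene 19075, chromosome 10, 128015215 to 128030030) was at 153 and 139 RPM in d4c3, 150.4 and 156 in d4c5, 112 and 137 in d4c7, 152 and 159.7 at E9.5, 138 and 166 in E12.5 males, and 206 and 222 in E12.5 females. Both female libraries were above all others. It rose from E9.5 to females by 0.45 ± 0.13 (adjusted p = 0.0141), a call lost without either E9.5 library or female replicate 2 (adjusted p 0.057 to 0.0972), and the male change was -0.044 ± 0.13 (adjusted p = 0.82). Prim2 was at 52.8 and 43.5 RPM in d4c3, 53.8 and 62.3 in d4c5, 56.5 and 54.1 in d4c7, 71.7 and 60.9 at E9.5, 63.8 and 67.4 in E12.5 males, and 85.2 and 89.0 in E12.5 females. It was lower in d4c3 than at E9.5 with a log2 difference of -0.46 ± 0.15 (adjusted p = 0.0438), a call lost without d4c3 replicate 2 or either E9.5 library (adjusted p 0.0679 to 0.278). It was also lower in PGCLCs than in the embryonic groups with a log2 difference of -0.43 ± 0.088 (adjusted p = 0.00102), with the female libraries highest. Pole2, whose 3′ end is covered by Gm49384 on the same strand, and Pold3 were called in no contrast.

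Clamp loader genes encode replication factor C, which opens the PCNA ring and sets it on DNA. Rfc1, its large subunit gene, was at 118 and 124 RPM in d4c3, 111 and 121 in d4c5, 84.8 and 117 in d4c7, 95.2 and 88.7 at E9.5, 149.7 and 139 in E12.5 males, and 138 and 145 in E12.5 females. The 4 E12.5 libraries were above all others, and it rose from E9.5 by 0.65 ± 0.14 in males (adjusted p = 0.00298) and 0.61 ± 0.14 in females (adjusted p = 0.00431). Rfc5 was at 172 and 191 RPM in d4c3, 217 and 196 in d4c5, 223 and 228 in d4c7, 161 and 155 at E9.5, 159.7 and 167 in E12.5 males, and 148 and 163 in E12.5 females. Each PGCLC library was above each embryonic library, with a mean log2 difference of 0.35 ± 0.062 (adjusted p = 0.000301), and its 3′ end overlaps Wsb2, which averaged 139.7 RPM, on the opposite strand.

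Rfc3 was at 90.7 and 90.0 RPM in d4c3, 84.9 and 85.4 in d4c5, 76.6 and 86.2 in d4c7, 124 and 112 at E9.5, 84.4 and 96.0 in E12.5 males, and 108 and 117 in E12.5 females. PGCLCs were lower with a log2 difference of -0.31 ± 0.073 (adjusted p = 0.0029), and E12.5 males were lower than E9.5 with a log2 difference of -0.38 ± 0.13 (adjusted p = 0.0302) with 1 male library inside the PGCLC range. That call was lost without either E9.5 library or male replicate 1 (adjusted p 0.0593 to 0.195). Rfc2 was at 81.8 and 91.4 RPM in d4c3, 89.2 and 98.9 in d4c5, 84.0 and 107 in d4c7, 97.9 and 96.5 at E9.5, 65.0 and 80.2 in E12.5 males, and 57.4 and 74.9 in E12.5 females. It fell from E9.5 to females with a log2 difference of -0.56 ± 0.17 (adjusted p = 0.0172), a call lost without either E9.5 library or female replicate 1 (adjusted p 0.0821 to 0.175), with a change of -0.37 without female replicate 1. PGCLCs were higher by 0.25 ± 0.096 (adjusted p = 0.0437), a call lost without either d4c3 library, d4c5 replicate 2, d4c7 replicate 2, either E9.5 library, male replicate 1 or female replicate 1 (adjusted p 0.0514 to 0.141). The 3′ end of Rfc2 overlaps Lat2, which averaged 0.101 RPM. Rfc4 was at 205 and 197 RPM in d4c3, 197 and 165 in d4c5, 176 and 154 in d4c7, 158 and 152 at E9.5, 159 and 168 in E12.5 males, and 182 and 192 in E12.5 females. It was higher in d4c3 than at E9.5 by 0.37 ± 0.12 (adjusted p = 0.0338), a call lost without either d4c3 library or either E9.5 library (adjusted p 0.086 to 0.168). Its 3′ end overlaps Eif4a2, which averaged 431 RPM, so its value may include reads of that gene.

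The last large role holds PCNA, the sliding clamp, the single-strand binding proteins Rpa1 to Rpa3, and Fen1 and Lig1, which process and join Okazaki fragments. Rpa2 (NCBI gene 19891, chromosome 4, 132768360 to 132778746), the middle subunit of replication protein A, was at 172 and 161 RPM in d4c3, 243 and 184 in d4c5, 259.9 and 276 in d4c7, 174 and 192 at E9.5, 422 and 413 in E12.5 males, and 466 and 481 in E12.5 females. By group mean the order was d4c3, E9.5, d4c5, d4c7, E12.5 males and E12.5 females. The E12.5 libraries were above all others, while d4c5 and E9.5 libraries overlapped and the difference between the sexes missed the threshold (adjusted p = 0.386). Rpa2 rose from E9.5 by 1.19 ± 0.12 in males (adjusted p = 8.81e-06) and 1.37 ± 0.12 in females (adjusted p = 3.40e-06). It was called in 4 of the 8 contrasts, more than any other replication gene, and PGCLCs differed from E12.5 by -1.07 ± 0.079 (adjusted p = 1.31e-07) and from E9.5 by 0.21 ± 0.10 (adjusted p = 0.123).

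Rpa1, the large subunit gene, was listed at low values, 2.35 and 20.0 RPM in d4c3, 3.90 and 6.78 in d4c5, 1.57 and 10.2 in d4c7, 15.8 and 6.60 at E9.5, 37.2 and 41.5 in E12.5 males, and 38.5 and 30.9 in E12.5 females. Replicate 2 was above replicate 1 in each culture group, and the 4 E12.5 libraries were above all others. PGCLCs were lower than the embryonic groups with a log2 difference of -1.96 ± 0.42 (adjusted p = 0.00141), and the difference from E9.5 alone was -0.79 ± 0.60 (adjusted p = 0.317). Changes from E9.5 were 1.83 ± 0.73 in males and 1.65 ± 0.73 in females (adjusted p = 0.0627 and 0.0906). At such levels the added 1 RPM makes a log2 change smaller than that of the RPM values themselves.

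Pcna, the clamp gene, was at 936 and 907 RPM in d4c3, 837 and 845 in d4c5, 840.3 and 686 in d4c7, 965 and 1008 at E9.5, 916 and 1036 in E12.5 males, and 888 and 898 in E12.5 females. The lowest library was d4c7 replicate 2, and PGCLCs were lower with a log2 difference of -0.18 ± 0.060 (adjusted p = 0.019), a call lost without E9.5 replicate 2 or male replicate 2 (adjusted p 0.0588 to 0.0715). Lig1 (NCBI gene 16881, chromosome 7, 13277175 to 13311426), the DNA ligase of Okazaki fragments, was at 129 and 175 RPM in d4c3, 85.7 and 158 in d4c5, 79.3 and 170.5 in d4c7, 193 and 219 at E9.5, 234 and 203 in E12.5 males, and 286 and 260.0 in E12.5 females. All PGCLC libraries were below all embryonic ones, and in each culture group replicate 1 was lower than replicate 2. The mean log2 difference was -0.86 ± 0.17 (adjusted p = 0.000848), and with the replicate block the call held. Fen1, the flap endonuclease, was lower in PGCLCs with a log2 difference of -0.26 ± 0.075 (adjusted p = 0.0102). The antisense transcript Gm10143 covers its 3′ end. Rpa3 was called in no contrast.

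Ribonucleotide reductase, encoded by Rrm1 and Rrm2, makes deoxynucleotides. Rrm1 was at 134 and 145 RPM in d4c3, 106 and 129.7 in d4c5, 88.7 and 145 in d4c7, 179 and 174 at E9.5, 191 and 201 in E12.5 males, and 178 and 187 in E12.5 females. All PGCLC libraries were below all embryonic ones, with a mean log2 difference of -0.58 ± 0.10 (adjusted p = 0.000288), and replicate 1 was again below replicate 2 in each culture group. Rrm2, the regulated small subunit, was at 57.9 and 60.3 RPM in d4c3, 26.9 and 49.2 in d4c5, 41.6 and 47.4 in d4c7, 64.7 and 58.7 at E9.5, 43.8 and 46.1 in E12.5 males, and 49.4 and 59.1 in E12.5 females. Its libraries overlapped between culture and embryo, and it was called in no contrast.

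Timeless and Tipin form a complex that stabilises stalled forks. Tipin (NCBI gene 66131, chromosome 9, 64281491 to 64305422) was at 285 and 289 RPM in d4c3, 282 and 304 in d4c5, 317 and 253 in d4c7, 209 and 184 at E9.5, 184 and 163 in E12.5 males, and 183 and 184 in E12.5 females. The lowest PGCLC library was above the highest embryonic one, with a mean log2 difference of 0.64 ± 0.070 (adjusted p = 5.33e-06). It was also higher in d4c3 than at E9.5 by 0.55 ± 0.12 (adjusted p = 0.00512), a call lost without E9.5 replicate 2 (adjusted p = 0.0754). Timeless was not called against the mean of the 3 embryonic groups, but it was higher in PGCLCs than at E9.5 by 0.36 ± 0.14 (adjusted p = 0.0493).

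**Figure D4:**
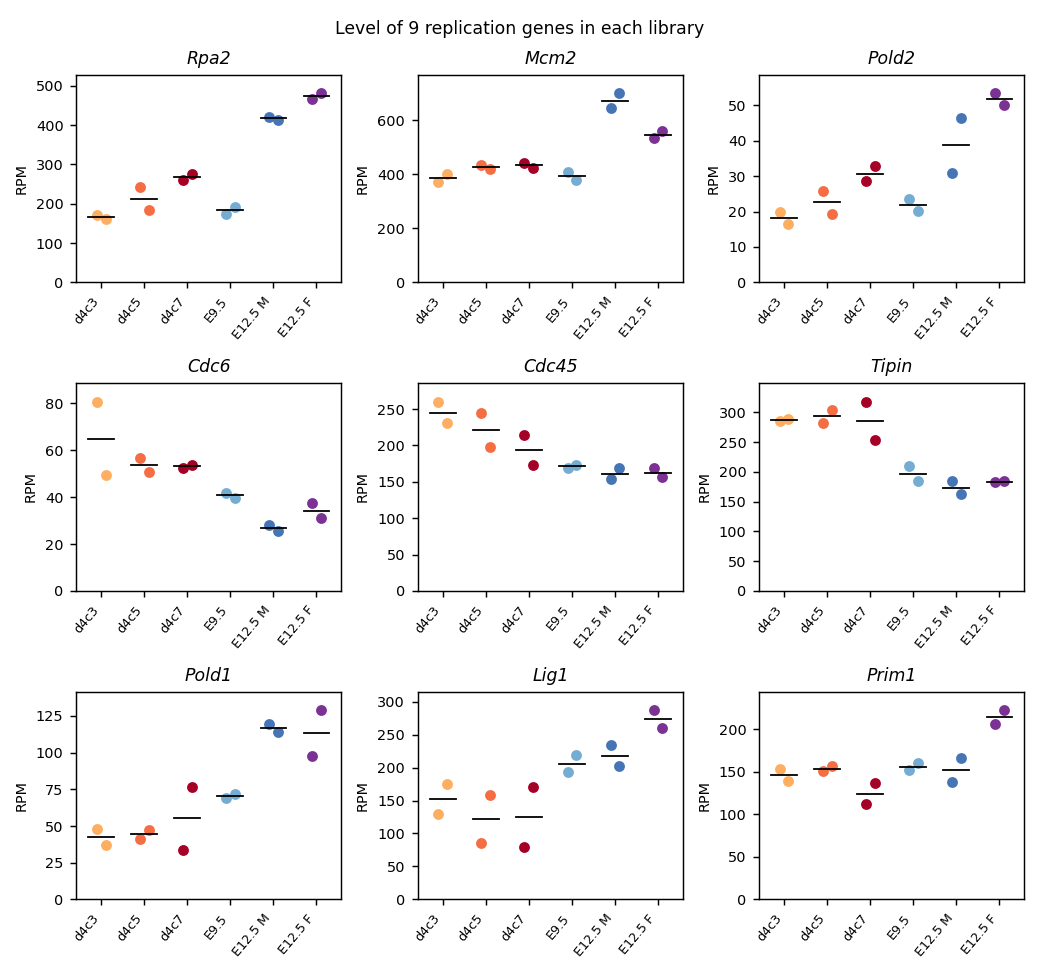
Points are RPM in each of the 12 libraries and lines are means of the 2 libraries of a group, with every vertical axis starting at 0. Rpa2 and Mcm2 are highest at E12.5, Cdc6, Cdc45 and Tipin are highest in PGCLCs, Lig1 is lowest in PGCLCs, and Prim1 is highest in E12.5 females.

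Across the 8 contrasts, 10 replication genes were called in none by limma, 16 in 1, 11 in 2, 7 in 3 and 1 in 4. The same tally over all genes tested is not given, so whether replication genes differ from other genes in it cannot be told. The 10 were Mcm4, Mcm6, Orc3, Orc6, Mcm10, Pole2, Pold3, Rpa3, Rrm2 and Timeless, and 6 of them had an unadjusted p under 0.05 in at least 1 contrast. Correlations between replication genes ran in both directions. Over the 990 pairs of replication genes, Pearson's r of log2(RPM + 1) across the 12 libraries had a median of 0.01 and quartiles of -0.39 and 0.43. The highest was 0.94, for Pold2 and Rpa2, followed by 0.93 for Lig1 and Rrm1, and the lowest was -0.91, for Pold1 and Tipin. These values are descriptions over libraries that fall into 6 groups and are scaled to their own totals, and they carry no test. No r of other genes was set beside them.

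Other genes of the replication pathway were counted in the same way, 38 listed and 36 tested. From E9.5 to E12.5, 13 of the 36 rose and 4 fell in males, where 20.0% of all genes rose and 17.6% fell. In females 10 rose and 4 fell, where 20.4% of all genes rose and 17.1% fell. Mcmbp, which encodes a binding partner of the Mcm proteins, averaged 81.7 RPM at E9.5 and rose to 175 RPM (males) and 197 RPM (females), with log2 changes of 1.09 ± 0.12 and 1.26 ± 0.12. Cdc7, the kinase that fires origins, rose from a mean of 51.0 to 107 and 87.8 RPM. The histone chaperone gene Asf1a fell from a mean of 62.6 to 22.1 and 26.2 RPM (log2 changes -1.46 ± 0.20 and -1.22 ± 0.20). Between PGCLCs and the embryonic groups 9 of the 36 were higher and 14 lower, where 27.7% and 26.8% of all genes were. Samhd1, which degrades deoxynucleotides, was at 288 RPM in PGCLCs and 119 RPM in the embryonic groups (1.35 ± 0.09, adjusted p = 3.98e-08). The same gene was lower in E12.5 females than males, at 64.5 RPM and 137 RPM, the 1 call of this list between the sexes, where 11.9% of all genes were called. Wdhd1, a polymerase alpha adaptor, was lower in PGCLCs, at 46.9 RPM against 90.8 RPM (-0.91 ± 0.12). Between d4c3 and E9.5, 5 were higher (13.4% of all genes) and 1 lower (10.3% of all genes), and in the 3 culture contrasts limma called 0 of the 36 (5 at an unadjusted p under 0.05 from d4c3 to d4c7, 2 and 3 for the steps).

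Genes that set the entry into S phase, 18 listed and 16 tested, showed 3 higher and 4 lower in males against E9.5 (20.0% and 17.6% of all genes), and 3 higher and 6 lower in females (20.4% and 17.1% of all genes). Ccne1, the cyclin of S phase entry, fell from a mean of 102 RPM at E9.5 to 47.0 (males) and 56.2 RPM (females). Cdk2, the gene of its kinase partner, rose from 16.8 to 47.2 and 35.4 RPM. In PGCLCs against the embryonic groups 6 of the 16 were higher and 3 lower (27.7% and 26.8% of all genes), with Ccne1 at 127 RPM and 68.4 RPM and the activator gene E2f1 at 35.9 RPM and 63.4 RPM (log2 differences 0.96 ± 0.10 and -0.82 ± 0.12). Of 25 mitosis genes, 8 were higher and 7 lower in PGCLCs, beside the same shares of all genes. From E9.5, 9 of the 25 rose and 2 fell in males (20.0% and 17.6% of all genes), and 3 rose and 2 fell in females (20.4% and 17.1% of all genes). The kinase gene Aurkb was at 153 RPM in PGCLCs and 111 RPM in the embryonic groups. Replication, S phase entry and mitosis lists each held calls in both directions in these contrasts of PGCLCs with embryonic groups and of each sex with E9.5.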

How the data were processed

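RNA of sorted cells was amplified as cDNA and sequenced on a SOLiD instrument, per the labels' protocols. Values were deposited by the authors as RPM, in which the reads of a gene are scaled by library total, for 26218 gene rows and 92 spike-in rows in 12 libraries. Per the submitters' processing notes, cutadapt 1.3, TopHat 1.4.1, Cufflinks 2.2.0 and the build mm10 were used, and the step each served is not stated. Whether counting used strand is not given in the sources used here. Of the values up to 20 reads, 81.7% to 87.3% per library were whole multiples of the smallest step within 0.1 read, so whole reads were not recovered and no count test was run. The labels do not state which stretch of a transcript was read. Amplification of this kind is known to favour 3′ ends, which is why genes covering the 3′ end of a replication gene are named, and amplification from 10 ng or 1 ng of RNA can add spread at low levels.

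Genes with at least 5 RPM in at least 2 of 12 libraries were tested (10856, with 15362 left out) on log2(RPM + 1) with limma 3.58.1 in R 4.3.3. A single model over all 12 libraries had a mean per group and a mean-variance trend, with 6 residual and 8.02 prior degrees of freedom. A fold change on this scale understates the change of low genes. Benjamini-Hochberg adjustment ran over all genes tested. The model was run before use on simulated data with a common spread for all genes and groups. Contrasts between single groups alone were simulated. That run does not cover the unequal spread of culture and embryo, or the contrast of PGCLCs with all embryonic groups. All replication genes may be named; by library are given the called gene with the largest change in each direction per role and contrast, and Mcm2, Mcm6, Cdc6, Cdt1, Gmnn, Pcna and Rrm2, and Lig1 was added. The genes, lists and roles were chosen with earlier results of these data known.

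Replicate numbers were checked as a pairing. Across genes, the differences between replicates 1 and 2 correlated at r = 0.12, 0.13 and 0.46 between the culture groups and at -0.02 to 0.02 between the embryonic groups. The data thus gave a hint, not stated in the labels, that the numbers pair the culture libraries. The main fits did not use such a pairing. A fit with the replicate number as a block, separately in culture and embryo, is given beside a count where it moved it. Other alternatives were a pseudocount of 0.5, no filter, the median log ratio set to 0, only the groups compared, and leaving out each library. Gene positions, NCBI identifiers and promoters came from RefSeq GRCm38.p6 and overlapping genes from GENCODE M21. Promoters were searched in the 250 bases before the start, and the bases after it were not searched.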

Additional observations from a re-analysis of the deposited data

Results flagged for a closer look

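Prim1 differed between E12.5 females and males, with females higher by 0.50 on the log2 scale (limma, SE 0.13, adjusted p = 0.023). This is the same contrast of the sexes as given above and not a further result. E9.5 is common to both changes and drops out of their difference. The change from E9.5 was 0.45 in females and -0.044 in males. Both female libraries were above both male libraries, as in 3218 of the 10856 genes tested. Without the filter on low values the call was lost. The call was lost without 3 of the 4 E12.5 libraries. In groups of 2 libraries, outliers within a group could not be looked for.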

How the results depend on the processing

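Counts of called replication genes moved by over 1.5 times in 7 of the 8 contrasts. The share of all genes called in each of the fits below is not given here. Whether the moves are particular to replication genes therefore cannot be told. Without a filter on low values limma called 0 from d4c3 to d4c7 (9 at an unadjusted p under 0.05) and 0 between the sexes (8 at an unadjusted p under 0.05). With only the groups compared it called 0 from d4c3 to d4c7 (2 at an unadjusted p under 0.05), 21 in males and 23 in females against E9.5, 2 between the sexes and 15 between d4c3 and E9.5; such a fit estimates the spread from 4 libraries. With the replicate block it called 17 in males, 3 between the sexes and 13 between d4c3 and E9.5, and the block changed none of the 63 calls of single genes, nor did a pseudocount of 0.5. Setting the median log ratio to 0 lost 9 of these calls and leaving out the filter lost 10. Leaving out 1 library gave 0 to 5 calls from d4c3 to d4c7, 0 to 1 from d4c3 to d4c5, 5 to 7 in males, 5 to 8 in females, 0 to 1 between the sexes and 0 to 4 between d4c3 and E9.5, where an arm with 1 library is assumed to vary like the other groups. For PGCLCs against the embryonic groups it gave 23 to 31. With E9.5 as the only embryonic group, added after the results were seen, 13 were called. Of the 29 genes called against all embryonic groups, 7 had the opposite sign there, and none of the 7 was called against E9.5. They were Orc4 (0.092), Rpa2 (0.21), Pole (0.24), Mcm2 (0.079), Pold2 (0.081), Rfc2 (-0.083) and Gins3 (-0.052). The cause of these changes was not tested. Depth limits the low genes most: 3 reads were worth up to 1.36 RPM, and Rpa1 was at 1.57 RPM in 1 library.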

Other observations

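The root mean square log2 difference between replicates over the 45 genes was 0.45 in d4c3, 0.29 in d4c5 and 0.49 in d4c7, and 0.22 at E9.5, 0.21 in E12.5 males and 0.17 in E12.5 females. Over all genes tested it was 0.42, 0.49 and 0.56 in the culture groups and 0.33, 0.40 and 0.40 in the embryonic groups, so larger values in culture were not limited to replication genes. The differences of replicate 1 minus replicate 2 had an r across the 45 genes of 0.43 (d4c3 and d4c5), 0.61 (d4c3 and d4c7) and 0.59 (d4c5 and d4c7). Between embryonic groups r was -0.10 to 0.16, but with E9.5 it was -0.61 (d4c3), -0.29 (d4c5) and -0.43 (d4c7), so r of such size also occurred between culture and embryonic groups. Genes are not independent replicates, and these r are descriptions. Lig1, Rrm1 and Rpa1 were lower in replicate 1 in all 3 culture groups.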
